A study of Homo sapiens with 18 samples.

Results

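HCT116 cells, a human colorectal carcinoma line of epithelial origin, were compared after TNF when their IκBα carried the M3 change and when it was wild type. The comparison used 6 of the 18 RNA-seq libraries of the study: 3 of M3 cells and 3 of WT cells, both exposed to human TNFα at 0.1 µg/mL for 40 min. All genes past a low-count filter were its members, 19038 of the 61552 in the deposited count table. M3 is described by the submitters as the change of H84, E85 and E86 of IκBα to alanine, and the WT line, like the mutant lines, is labelled as a knock-in, so that every group carried an introduced IκBα. Further groups were used only to set these 6 libraries in context, again with 3 libraries each: M3 cells untreated, N108 knock-in cells with and without the same TNF treatment, and WT cells untreated. The study's title asks about a part played by IκBα in intestinal stemness that does not depend on NF-κB.

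IκBα, the product of NFKBIA, binds NF-κB dimers and holds them out of the nucleus. Tumour necrosis factor (TNF) acts through the receptor TNFR1 on a chain of adaptors and kinases that ends in the IKK complex, which marks IκBα for destruction by the proteasome. The freed dimers switch on a first wave of genes within minutes, among them chemokines, adhesion molecules and inhibitors that end the response, NFKBIA itself included. In the intestinal epithelium the pathway is known for recruiting neutrophils, for survival under inflammatory stress and for its part in colitis-associated tumours.

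The library totals were 49021907 to 63471876 counts in M3 cells with TNF and 49606478 to 58882553 counts in WT cells with TNF. Replicates of a group differed by more than counting noise in every pair, with a chi-square per degree of freedom of 5.95 to 6.81 in M3 cells and 6.31 to 15.5 in WT cells. WT replicate 3 stood apart, at 13.1 and 15.5 against WT replicates 1 and 2, which differed by 6.31 from each other. Without that library 4598 genes were higher in M3 and 4868 were lower, against 5120 and 5297 with it. The drop was not particular to that library, since leaving out any 1 of the 6 gave 4598 to 4808 higher and 4771 to 4980 lower. The labels do not say whether replicates came from separate cultures, so the p-values rest on a spread between libraries that could be technical alone. Each genotype is 1 line in the labels, so a mutation and the line that carries it cannot be told apart. In these bulk samples, fewer cells with a transcript and less transcript per cell cannot be told apart either.

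Promoters of 4 genes that carry the main finding are shown because M3 was above WT at the first 3 (CXCL8, ICAM1 and NFKBIA) and below WT at the last (TNFAIP3), although all 4 rise with TNF. The sequences are RefSeq's, on GRCh38.p14, 300 bases each, from 250 bases before to 50 after the start of the gene in RefSeq. Gene positions given further below are from GENCODE 29, whose starts differ from these for CXCL8, ICAM1 and TNFAIP3. The GENCODE start of ICAM1 lies before its whole window. Capitals mark matches to GGNNNTTCC or its reverse complement GGAANNNCC, letters shared by many NF-κB binding sites, searched on both strands, where a word can match on both.
CXCL8 promoter, chr4:73740319-73740618, plus strand: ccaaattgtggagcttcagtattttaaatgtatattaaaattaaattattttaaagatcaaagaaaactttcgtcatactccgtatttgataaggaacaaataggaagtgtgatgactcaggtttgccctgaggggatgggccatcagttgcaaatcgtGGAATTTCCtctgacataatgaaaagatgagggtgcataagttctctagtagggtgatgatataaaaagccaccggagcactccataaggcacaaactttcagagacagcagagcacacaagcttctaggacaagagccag
ICAM1 promoter, chr19:10270870-10271169, plus strand: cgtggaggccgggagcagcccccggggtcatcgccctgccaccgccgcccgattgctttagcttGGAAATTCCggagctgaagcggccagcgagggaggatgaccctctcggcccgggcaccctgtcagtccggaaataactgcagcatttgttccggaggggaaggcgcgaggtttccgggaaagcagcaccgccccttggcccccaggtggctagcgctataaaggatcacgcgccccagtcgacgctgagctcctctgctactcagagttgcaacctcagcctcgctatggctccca
NFKBIA promoter, chr14:35404700-35404999, minus strand: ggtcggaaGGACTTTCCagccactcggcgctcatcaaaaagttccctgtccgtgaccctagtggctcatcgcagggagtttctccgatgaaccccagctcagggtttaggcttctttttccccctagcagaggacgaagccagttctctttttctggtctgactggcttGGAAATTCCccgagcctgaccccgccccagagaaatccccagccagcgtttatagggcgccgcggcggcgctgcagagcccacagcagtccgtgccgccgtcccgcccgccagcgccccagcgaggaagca
TNFAIP3 promoter, chr6:137867009-137867308, plus strand: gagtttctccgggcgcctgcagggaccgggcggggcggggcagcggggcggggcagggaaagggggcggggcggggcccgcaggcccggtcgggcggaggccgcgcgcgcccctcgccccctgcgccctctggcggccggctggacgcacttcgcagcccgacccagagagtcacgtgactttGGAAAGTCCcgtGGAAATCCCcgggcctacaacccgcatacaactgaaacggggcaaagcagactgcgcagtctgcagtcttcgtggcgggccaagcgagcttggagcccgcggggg
One or more matches stood in 20.1% of the 27305 promoters of the table, and in 25 of the 39 promoters (64.1%) found for 50 genes that were at least 2-fold higher with TNF in N108 cells. A match is a description of letters and does not show a bound factor. The 4 promoters held 1 or 2 matches each, and their number did not separate the genes higher in M3 from the gene lower in M3.

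NFKBIA, the gene that was edited, was higher in M3 cells after TNF. Its levels were 943, 985 and 969.7 CPM (counts scaled to library totals of a common size) in M3 cells with TNF, against 744, 749 and 781 CPM in WT cells with TNF (log2 fold change 0.35, SE 0.049, adjusted p = 9.1e-07; chromosome 14, 35401511 to 35404749, minus strand, GRCh38). The groups did not overlap. Without TNF the order was the opposite, with 79, 78.1 and 76.7 CPM in M3 cells and 90.8, 87.4 and 96.5 CPM in WT cells, M3 being slightly lower (log2 fold change -0.23, adjusted p = 0.00036). Adjusted p-values throughout are from edgeR's quasi-likelihood test over all 19038 genes, two-sided, with 0.05 as the threshold, and a fold change is M3 over WT unless another pair is named. Whether reads held the altered codons cannot be read from counts per gene.

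Across all genes, 5120 were higher in M3 cells with TNF (26.9% of those tested) and 5297 were lower (27.8%), which is the background for each count given here. Differences of at least 2-fold were found for 1067 genes higher (5.6%) and 935 lower (4.91%). With a stricter filter, 1 CPM or more in at least 3 libraries, 1001 genes in all were at least 2-fold apart, against 2002. The median log2 fold change of all genes was 0.017, and that of the called genes, regardless of sign, was 0.45. Tested against a change of 0.5 on the log2 scale rather than against 0, the calls were 1233 higher and 1301 lower. In 5907 genes all 3 M3 libraries lay above all 3 WT libraries, and in 5976 they lay below. With 54.7% of the genes called, a call alone says little of a gene, and the sizes and the levels per library carry the description.

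Genes that carry the TNF signal towards NF-κB were mostly a little lower in M3 cells. Of 28 members of the receptor and signal list, 3 were higher and 15 lower (53.6% lower), with a median log2 fold change of -0.18 and none past 2-fold. The receptor gene TNFRSF1A did not pass, at 77.5, 80 and 75.6 CPM in M3 cells and 76.8, 76.6 and 81.3 CPM in WT cells (-0.011, adjusted p = 0.86). RIPK1, the kinase and scaffold of the receptor complex, stood at 40.1, 38.8 and 38.1 CPM in M3 cells and 53.3, 55.1 and 54.1 CPM in WT cells (log2 fold change -0.47, SE 0.045, adjusted p = 8.9e-10). TRAF2, its partner adaptor, was lower as well (-0.41, adjusted p = 1.2e-07), as was BIRC2, the ubiquitin ligase cIAP1 (-0.34, adjusted p = 8.8e-06). All 3 subunits of the IKK complex were lower: CHUK, which encodes IKKα (-0.47), IKBKB, which encodes IKKβ (-0.36), and IKBKG, which encodes the scaffold NEMO (-0.40). CASP8, the protease that starts the death branch, was higher, with 42.7, 44.4 and 46.3 CPM in M3 cells and 31.2, 29.6 and 31.1 CPM in WT cells (log2 fold change 0.54, SE 0.053, adjusted p = 1.9e-09). TAB2, which links ubiquitin chains to the kinase TAK1, and TRAF5 were the other two higher members (0.28 and 0.40). The other lower members of the list ran along the whole chain. FADD, the adaptor of the death branch (-0.35), RBCK1, the HOIL-1 subunit of the linear ubiquitin ligase (-0.37), OTULIN, which cuts linear chains (-0.27), TRAF3 (-0.18), TAB3 (-0.24) and MAP3K14, the kinase NIK (-0.37), were lower. So were UBE2D3 (-0.30) and CUL1 (-0.28), of the machinery that ubiquitinates IκBα, and ADAM17, which sheds TNF and its receptors (-0.18). The members that did not pass were TNFRSF1A, TNFRSF1B, TRADD, MAP3K7, TAB1, TRAF6, RNF31, SHARPIN, SPATA2 and BTRC, at log2 fold changes of -0.11 to 0.09. Untreated cells gave the same counts, 3 higher and 15 lower, which need not be the same members. RNF31 stood at -0.78 untreated and 0.09 with TNF. Its interaction, described further below, was called at 0.87, a call lost in most fits that left out 1 library.

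Of the subunit genes of NF-κB, 2 were lower in M3 cells. NFKB1, the precursor of p50, had 54.8, 51.9 and 53.8 CPM in M3 cells with TNF and 76.2, 73.1 and 74.4 CPM in WT cells with TNF (log2 fold change -0.48, SE 0.043, adjusted p = 3.1e-10). RELA, which encodes p65, was lower by a smaller amount (-0.25, adjusted p = 5.2e-05). REL, RELB and NFKB2 did not pass the test, at log2 fold changes of -0.019, -0.15 and 0.11. So 2 of the 5 subunit genes were lower and none was higher, and the same 2 were lower untreated (-0.46 and -0.18). Without WT replicate 1, NFKB2 was called higher (adjusted p = 0.036), as it was with the 6 libraries alone (0.042). The stricter filter (0.038) and a fit with GC trends removed (0.00087) called NFKB2 higher too. RELB was called lower with the 6 libraries alone (0.042).

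The list of IκB inhibitors went both ways. Besides IκB genes it holds the kinase gene IKBKE and the regulators NKIRAS1 and NKIRAS2, which are not IκB proteins. Of 9 list members, 2 were higher (NFKBIA and NFKBIZ) and 4 were lower. NFKBIZ encodes an atypical nuclear IκB that works as a cofactor on a second wave of genes. It reached 64.7, 68.7 and 64.5 CPM in M3 cells with TNF, against 53.7, 56.6 and 51.1 CPM in WT cells with TNF (log2 fold change 0.29, SE 0.059, adjusted p = 0.00013), although M3 cells held less of it untreated (3.25, 3.3 and 3.07 CPM, against 6.81, 6.34 and 6.58 CPM in WT). BCL3, another nuclear member, was lower (35, 35.8 and 37.9 CPM in M3, 55.3, 58.6 and 51.8 CPM in WT; log2 fold change -0.61, SE 0.087, adjusted p = 5.0e-06). NFKBIB, which encodes IκBβ, was lower (-0.34), as was NKIRAS2, which restrains IκB breakdown (-0.19). The fourth, NFKBID (-0.22, adjusted p = 0.044), lost its call when any of M3 replicate 1, M3 replicate 2, WT replicate 1 or WT replicate 2 was left out, with adjusted p up to 0.2. NFKBIE, IKBKE and NKIRAS1 did not pass (-0.08, 0.08 and 0.08).

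Feedback genes that end the signal were split in the same way. TNFAIP3 encodes A20, a deubiquitinating enzyme that takes apart the signalling complexes. Its levels were 203, 216 and 215 CPM in M3 cells with TNF and 254, 265 and 245 CPM in WT cells with TNF (log2 fold change -0.27, SE 0.055, adjusted p = 0.00014; chromosome 6, 137867188 to 137883312, plus strand). The gap was far wider untreated, with 7.16, 7.36 and 8.22 CPM in M3 and 24.6, 24.9 and 24.9 CPM in WT (log2 fold change -1.71). In the list as a whole 5 of 15 members were higher and 8 were lower. The higher ones were CYLD, a second deubiquitinating enzyme (0.46), IER3 (0.41), and the RNA decay factors ZC3H12A (0.48), ZFP36 (0.56) and ZFP36L1 (1.09), which destabilise cytokine transcripts. ZFP36L1 was more than 2-fold up, at 705, 748 and 710.1 CPM in M3 and 332, 343 and 344 CPM in WT. Its relative ZFP36L2 went the other way (65.1, 67.3 and 68.8 CPM in M3, 130.4, 129.7 and 129.9 CPM in WT; -0.96, adjusted p = 3.3e-16), as did OTUD1 (-0.96, adjusted p = 1.1e-08). TNIP2, a relative of TNIP1, and the A20 partners RNF11 and ITCH were lower (-0.32, -0.37 and -0.30), and OTUD7B and ZC3H12C did not pass (-0.02 and 0.03). TNIP1 and TAX1BP1, partners of A20, were lower by little (-0.17 and -0.15), and both calls were lost without M3 replicate 1 or WT replicate 3 (TAX1BP1 also without M3 replicate 2), with adjusted p up to 0.24 and 0.093. With those 2 calls gone, as without WT replicate 3, 6 members were lower.

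Chemokine transcripts were higher in M3 cells after TNF. Of the 18 chemokines listed 7 passed the low-count filter, and of these 5 were higher, 1 was lower and 1 did not pass the test, with a median log2 fold change of 0.62. CXCL8, the main neutrophil attractant of human epithelium, had 189, 205 and 215 CPM in M3 cells with TNF, against 116, 132 and 147 CPM in WT cells with TNF (log2 fold change 0.62, SE 0.061, adjusted p = 1.5e-09; chromosome 4, 73740506 to 73743716, plus strand). CXCL1, of the same family, had 129, 143 and 135 CPM in M3 and 85.2, 92.9 and 97.9 CPM in WT (log2 fold change 0.56, SE 0.072, adjusted p = 5.8e-07). For both genes every M3 library lay above every WT library. CXCL3 showed a gap of about 2-fold, with 57.2, 63.6 and 60.2 CPM in M3 and 27.4, 30.4 and 29.8 CPM in WT (log2 fold change 1.05, SE 0.1, adjusted p = 5.2e-08). CXCL2 had 35.8, 41.3 and 39.7 CPM in M3 and 21.7, 25.7 and 25.6 CPM in WT (0.68, adjusted p = 1.4e-05). CCL20, which attracts cells through CCR6, had 8.29, 8.55 and 7.92 CPM in M3 and 3.35, 4.37 and 4.99 CPM in WT (log2 fold change 0.95, SE 0.14, adjusted p = 4.1e-06). CCL28, a mucosal chemokine, was lower and close to the limit of detection in M3, averaging 0.076 CPM in M3 and 0.484 CPM in WT (-2.61, adjusted p = 5.3e-07). CXCL16, which is made as a membrane protein, did not pass (-0.022).

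Untreated, CXCL8 and CXCL1 stood in the opposite order. CXCL8 had 0.9, 0.975 and 0.964 CPM in untreated M3 cells and 1.91, 1.83 and 2.02 CPM in untreated WT cells (log2 fold change -1.01, adjusted p = 1.1e-06). CXCL1 had 0.744, 0.553 and 0.561 CPM in untreated M3 cells and 0.888, 0.89 and 1 CPM in untreated WT cells (-0.57, adjusted p = 0.028). M3 cells therefore began lower and ended higher, with log2 fold changes of TNF over untreated of 7.74 in M3 and 6.11 in WT for CXCL8, and of 7.77 in M3 and 6.64 in WT for CXCL1.

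**Figure D1:**
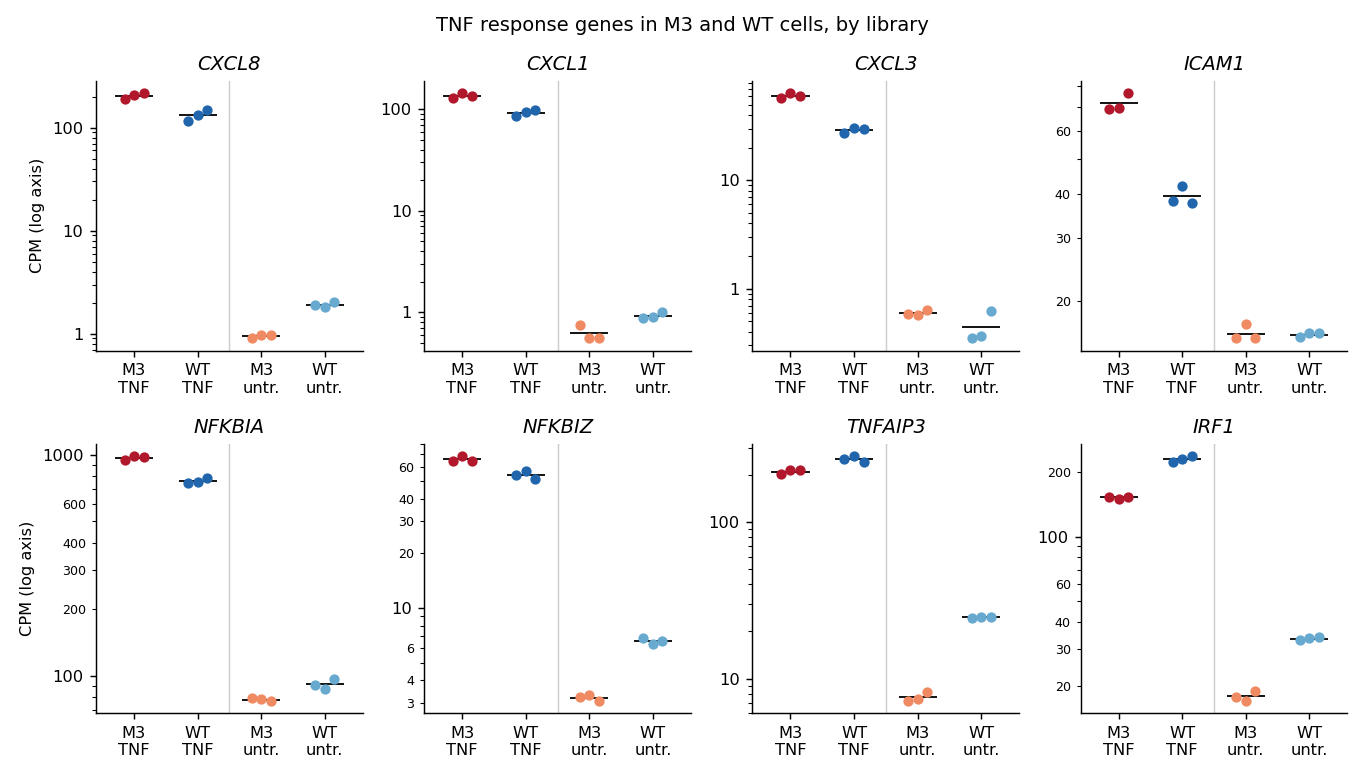
CPM of 8 TNF response genes on a log axis, 1 point per library and a line at the mean of 3, in M3 cells with TNF, WT cells with TNF, M3 cells untreated and WT cells untreated. With TNF the M3 points of CXCL8, CXCL1, CXCL3, ICAM1, NFKBIA and NFKBIZ lie above those of WT and those of TNFAIP3 and IRF1 below; untreated, M3 lies below WT for CXCL8, CXCL1, NFKBIA, NFKBIZ, TNFAIP3 and IRF1.

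Cytokines and growth factors made by epithelial cells went in both directions, with 7 of 21 higher and 11 lower (median log2 fold change -0.26). That is 33.3% higher and 52.4% lower, against 26.9% and 27.8% of all genes. The TNF transcript itself was lower, with 0.971, 0.636 and 0.886 CPM in M3 cells and 1.4, 1.66 and 1.5 CPM in WT cells (log2 fold change -0.86, SE 0.2, adjusted p = 0.00064). CSF2, the granulocyte and macrophage growth factor, averaged 0.173 ± 0.13 CPM in M3 and 0.703 ± 0.22 CPM in WT (SD, n = 3 each; -1.94, adjusted p = 7.9e-05). IL18, an epithelial cytokine stored as a precursor, was lower at 81.8, 84.2 and 84.3 CPM in M3 and 151, 160.2 and 168 CPM in WT (log2 fold change -0.94, SE 0.052, adjusted p = 9.3e-15), and IL15, a growth factor for lymphocytes, at 0.799, 1.21 and 1.03 CPM in M3 and 2.85, 2.84 and 3.18 CPM in WT (-1.56, adjusted p = 2.1e-10). Of the ligands of the EGF receptor, AREG and EREG were higher in M3: AREG had 278, 287 and 301 CPM in M3 and 88.9, 90.8 and 101 CPM in WT (log2 fold change 1.62, SE 0.048, adjusted p = 7.6e-21), and EREG had 592, 624 and 568 CPM in M3 and 361, 381 and 397 CPM in WT (0.65, adjusted p = 1.1e-05). TGFA, of the same ligand family, was lower (-0.42, adjusted p = 2.1e-09). LIF, a cytokine of the interleukin 6 family, was lower (-0.83), as were IL11 of the same family (-0.83) and TNFSF9 (-0.83). The TNF relatives TNFSF10, which encodes TRAIL, and TNFSF15 were the furthest down of the list (-3.31 and -3.27), at low levels: TNFSF10 had 0.0157, 0.041 and 0.0181 CPM in M3 and 0.163, 0.28 and 0.313 CPM in WT, and TNFSF15 had 0.0627, 0.082 and 0.0362 CPM in M3 and 0.508, 0.672 and 0.592 CPM in WT. TSLP, an epithelial alarm cytokine, was the furthest up, with 0.815, 1.13 and 1.59 CPM in M3 and 0.407, 0.317 and 0.331 CPM in WT (log2 fold change 1.73, SE 0.24, adjusted p = 6.0e-07). LTB, which encodes lymphotoxin β, IL12A and IL23A were higher (1.05, 0.81 and 0.73), each under 2 CPM in every library. CSF1, IL1A and IL32 did not pass (-0.11, -0.19 and 0.67). IL7 was higher (0.64) and HBEGF lower (-0.26), but leaving out 1 library ended both calls. For IL7 this was M3 replicate 1 or 2 or WT replicate 1 or 2 (adjusted p up to 0.098), and for HBEGF M3 replicate 2 or 3 or WT replicate 1 or 3 (up to 0.14).

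Among the effectors that NF-κB is known to control, 5 of 27 were higher and 13 lower. That is 18.5% higher and 48.1% lower, against 26.9% and 27.8% of all genes. ICAM1, the adhesion molecule that neutrophils grip, showed a clear gap, with 69.1, 69.8 and 76.5 CPM in M3 cells with TNF and 38.2, 42 and 37.7 CPM in WT cells with TNF (log2 fold change 0.87, SE 0.083, adjusted p = 1.3e-08; chromosome 19, 10270835 to 10286615, plus strand). Untreated cells held 15.7, 17.2 and 15.7 CPM in M3 and 15.8, 16.2 and 16.2 CPM in WT, a difference that did not pass (0.011, adjusted p = 0.93). PLAU, which encodes the protease urokinase, and TNFAIP8 were higher with TNF (0.80 and 0.70) and untreated (0.99 and 0.98). NUAK2, a stress kinase, was higher with TNF (0.54), at 51.5, 50.6 and 46.6 CPM in M3 and 34.3, 34.1 and 34 CPM in WT.

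Several effectors that limit cell death were among the lower ones, while TNFAIP8, which is also known to limit it, was higher as given above. BCL2L1, which encodes the survival protein Bcl-xL, had 207, 205 and 201 CPM in M3 cells with TNF and 438, 421 and 458 CPM in WT cells with TNF (log2 fold change -1.10, SE 0.043, adjusted p = 4.6e-18). BIRC3, the ligase cIAP2, had 35.4, 38 and 42 CPM in M3 and 60.2, 68.7 and 60.1 CPM in WT (log2 fold change -0.71, SE 0.069, adjusted p = 1.5e-09). CFLAR, the inhibitor of caspase-8, was lower by a small step (-0.21, adjusted p = 0.00091), and GADD45B, a stress sensor, by a larger one (-1.23, adjusted p = 3.9e-12). IRF1, a transcription factor shared with the interferon response, had 153, 149.7 and 154 CPM in M3 and 222, 229.8 and 238 CPM in WT (log2 fold change -0.60, SE 0.059, adjusted p = 2.2e-09). PTGS2, which makes prostaglandins, averaged 1.2 ± 0.16 CPM in M3 and 2.07 ± 0.39 CPM in WT (-0.78, adjusted p = 0.00019). The calls of NOS2 and LAMB3, both lower, were lost when 1 library was left out: NOS2 without M3 replicate 2 or 3 or WT replicate 2 or 3 (adjusted p up to 0.082), LAMB3 without M3 replicate 1 or WT replicate 3 (up to 0.055). F3, which encodes tissue factor, had 12, 12.9 and 13.2 CPM in M3 and 21.7, 22.1 and 24.1 CPM in WT (-0.84, adjusted p = 4.5e-12). The adhesion receptor CD44 was lower (-0.28), as were TAP1 and PSMB9, of antigen processing (-0.41 and -0.63), and IFNGR2, a chain of the interferon γ receptor, was higher (0.16). SDC4, CD83 and EFNA1 did not pass (-0.054, 0.085 and 0.0065), nor did TRAF1, SELE, MMP9, TNFRSF9, CCNL1 and DRAM1 (-0.34, -0.26, 0.04, 0.54, 0.03 and 0.10). TRAF1 was called lower without M3 replicate 2 (adjusted p = 0.029) or WT replicate 3 (0.045). Across the fits that left out 1 library its adjusted p reached 0.42.

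Immediate early genes, which many stimuli switch on before new protein is made, were called in 35 of 45 cases, 16 higher and 19 lower. Their median log2 fold change was 0.03, and 35.6% were higher and 42.2% lower, against 26.9% and 27.8% of all genes. JUN, a subunit of AP-1, had 231, 235 and 248 CPM in M3 cells with TNF and 159.5, 144 and 166 CPM in WT cells with TNF (log2 fold change 0.60, SE 0.066, adjusted p = 3.3e-08), while untreated cells did not differ past the threshold (-0.14, adjusted p = 0.12). FOS, FOSB, FOSL2 and JUNB, further AP-1 subunits, were higher by 0.88, 0.64, 1.34 and 0.51, and by 0.79, 0.54, 1.49 and 0.49 untreated. The growth response gene EGR1 had 149.7, 153 and 159 CPM in M3 and 52.2, 53.8 and 61.6 CPM in WT (log2 fold change 1.46, SE 0.057, adjusted p = 3.9e-18), and MYC had 684, 695 and 676 CPM in M3 and 292, 286 and 314 CPM in WT (log2 fold change 1.20, SE 0.051, adjusted p = 3.1e-17). The orphan receptors of the NR4A family were lower, NR4A3 most of all, with 0.58, 0.677 and 0.525 CPM in M3 and 8.07, 8.18 and 8.23 CPM in WT (log2 fold change -3.78, SE 0.12, adjusted p = 2.9e-20). NR4A1 and NR4A2 were lower (-1.09 and -1.02). Of the phosphatases that switch off MAP kinases, DUSP4 was lower (167, 161 and 159 CPM in M3, 489.7, 479.8 and 506 CPM in WT; -1.60, adjusted p = 4.0e-22) and DUSP6 higher (342, 370.0 and 345 CPM in M3, 161, 156 and 172 CPM in WT; 1.11, adjusted p = 1.1e-16). CCN1 and CCN2, matricellular targets of YAP, were lower (-1.57 and -1.95). KLF6 and KLF5, epithelial zinc finger factors, were lower (-0.51 and -0.75), as was KLF2 (-0.63), while KLF10 was higher (0.24). CSRNP1, a nuclear protein, had 14.7, 14 and 14.3 CPM in M3 and 27.8, 26.9 and 30.6 CPM in WT (-0.99, adjusted p = 1.7e-12), and the kinase SGK1 was lower by a similar amount (-0.94). EGR3, DUSP2, DUSP1, FOSL1, GADD45A and IER5L were higher (0.55, 0.55, 0.33, 0.22, 0.28 and 0.28). SPRY4, an inhibitor of growth factor signalling, was higher (0.58), and its relative SPRY2 lower (-0.50). Of the rest MAFK, DUSP10, ARC, MCL1, IER5 and PPP1R15A were lower (-0.44, -0.52, -0.37, -0.30, -0.22 and -0.21). JUND, EGR2, EGR4, IER2, KLF4, DUSP5, DUSP8, BTG1 and BTG2 did not pass (0.09, 0.00, 0.52, 0.03, 0.06, 0.05, -0.15, 0.02 and 0.04).

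The N108 cells gave a list of TNF-responsive genes from libraries whose levels do not enter the fold changes of M3 over WT, although the shared fit lets them inform the spread behind its p-values. There, 209 genes were higher with TNF than without (1.1% of those tested). In M3 against WT with TNF, 51 of them were higher (24.4%, against 26.9% of all genes) and 93 lower (44.5%, against 27.8% of all genes), with a median log2 fold change of -0.09. Untreated cells gave 37 higher and 91 lower. The 50 genes that TNF raised at least 2-fold in N108 cells were split, with 18 higher (36%) and 19 lower (38%) in M3 with TNF, and 5 higher and 22 lower untreated. For 16 of the 50 the difference between M3 and WT moved upwards from untreated to TNF (a called interaction, described below for all genes, where it was positive in 0.284%), and for none was a downward move called. Among these 50 the genes higher in M3 with TNF included all 5 chemokines named above, ICAM1, JUN, JUNB, NFKBIA, NFKBIZ, ZFP36, ZC3H12A, IER3, NUAK2 and PLAU. The genes lower in M3 included TNF, CSF2, IL17C, BIRC3, IRF1, BCL3, MAP3K8, CEBPD, TNFAIP2, PDGFB and SERPINA3. SERPINA3, an acute phase protein, was lower (-2.26), and so was CEBPD, an acute phase transcription factor (-0.82).

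**Figure D2:**
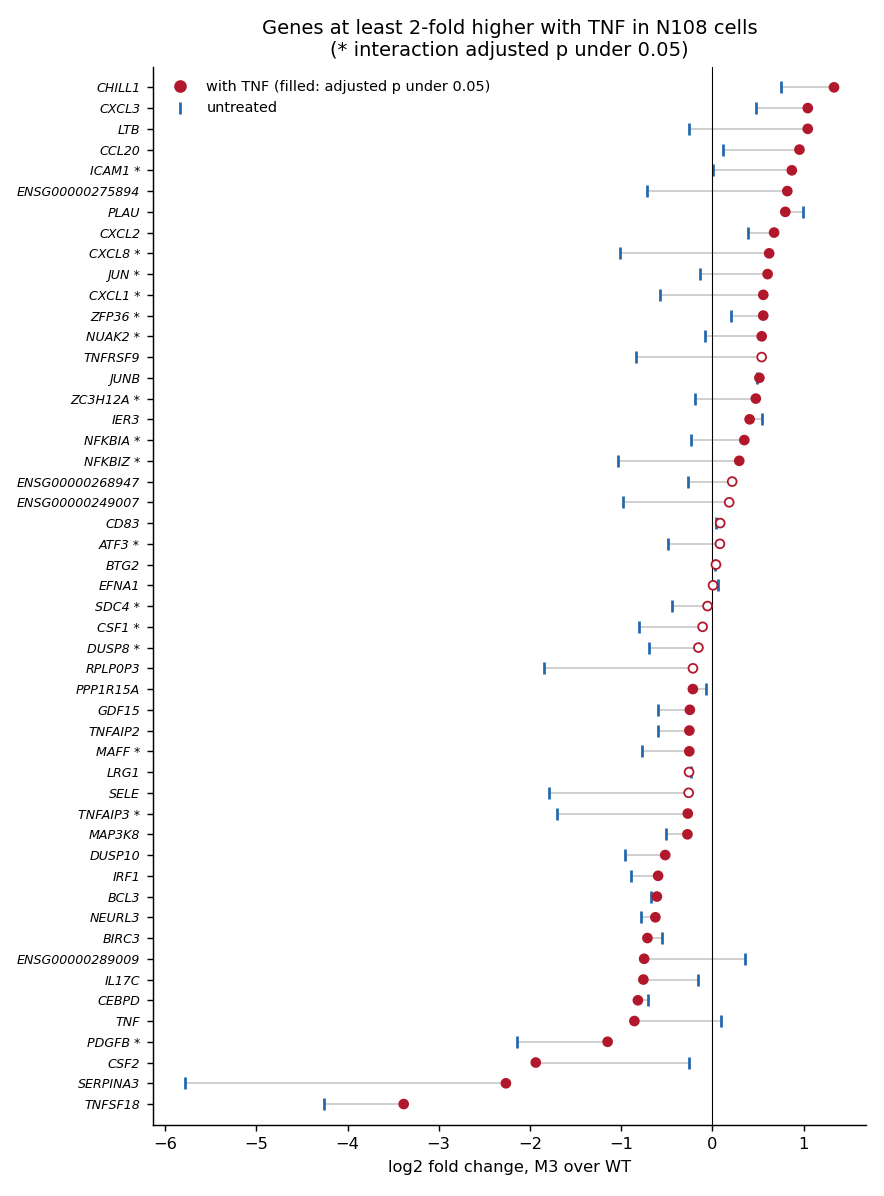
Log2 fold change of M3 over WT for the 50 genes at least 2-fold higher with TNF in N108 cells, with TNF (circles, filled where the adjusted p was under 0.05) and untreated (bars), 1 row per gene; a star marks a called interaction. For the 16 starred genes the circle lies to the right of the bar, and 18 filled circles lie right of 0 and 19 left of it.

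The differences between M3 and WT with TNF were then set beside those of the untreated cells, which share no library with them. Untreated, 4974 genes were higher in M3 (26.1%) and 5105 lower (26.8%). Of the genes called with TNF, 8268 were called untreated in the same direction (79.4% of the TNF calls and 82% of the untreated calls), 3965 of them higher and 4303 lower. For the 2002 genes with at least 2-fold differences the share was 81.3%. A further 2127 genes were called with TNF only and 1789 untreated only, and 22 genes were called in opposite directions, 21 of these higher with TNF. Across all 19038 genes the log2 fold changes correlated at Pearson r = 0.901 and Spearman rho = 0.824, a description across genes, which are not independent replicates. Most of the difference between the lines with TNF was thus measured without TNF too.

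**Figure D3:**
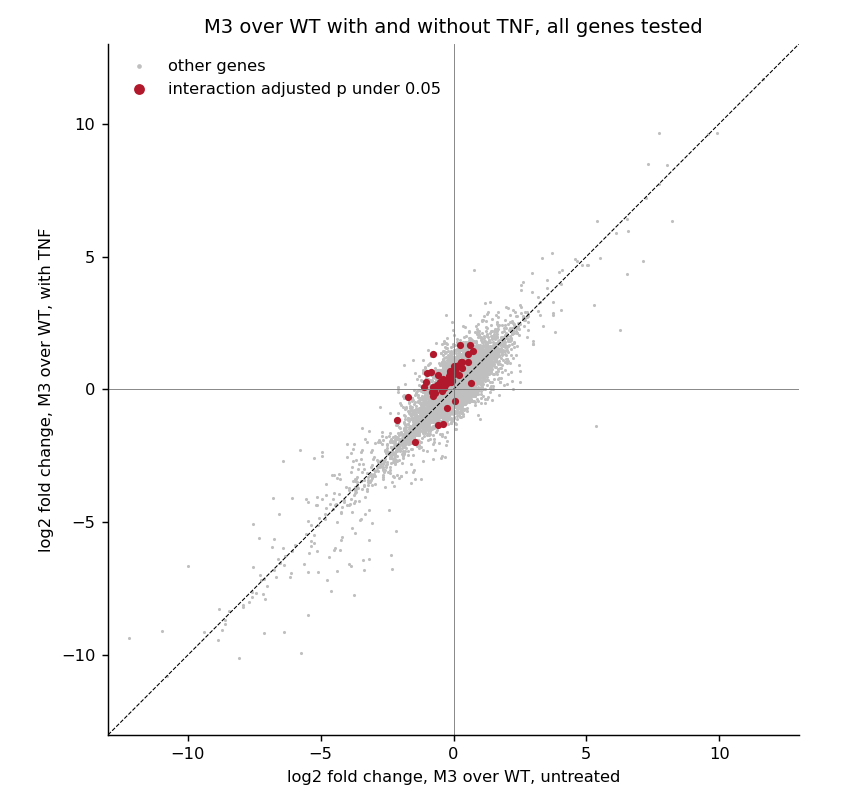
Log2 fold change of M3 over WT with TNF (vertical axis) against the same untreated (horizontal axis) for the 19038 genes tested, 1 point per gene, with the line of equality dashed. Most points lie along the line (Pearson r = 0.901), and the 60 genes with a called interaction are marked: 54 lie above the line and 6 below.

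The interaction asks whether the difference between M3 and WT with TNF departs from that untreated. It was positive, with M3 gaining on WT, in 54 genes (0.284% of those tested) and negative in 6 (0.0315%). TNFAIP3 had the smallest p, with an interaction of 1.44 (SE 0.087, adjusted p = 3.0e-11): TNF over untreated gave a log2 fold change of 4.80 in M3 cells and 3.36 in WT cells. NFKBIZ followed at 1.33 (adjusted p = 8.7e-09), CXCL8 at 1.63 (3.7e-07), PDGFB, which encodes a growth factor for mesenchymal cells, at 0.99 (3.3e-05), and NFKBIA at 0.58 (3.5e-05). JUN, ICAM1, ATF3, MAFF and ZC3H12A were also positive (0.74, 0.86, 0.57, 0.52 and 0.66). These 10 calls held when any 1 library was left out. For CXCL1 (1.13, adjusted p = 0.03) the call was lost in 6 of the 12 fits that left out 1 library, with adjusted p up to 0.12. CXCL3, CXCL2 and CCL20 had positive values that did not pass (0.57, 0.29 and 0.83).

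Genes with a positive interaction did not all rise with TNF in M3. Of the 54, 18 were called higher with TNF in M3 cells, 16 in WT cells and 17 in N108 cells. Of all genes, 1.1% were called higher with TNF in M3 cells, 2.03% in WT cells and 1.1% in N108 cells. In 38 of the 54 the WT cells with TNF lay below the WT cells untreated, as they did in 46.5% of all genes, and in 35 of these the fall was called (64.8% of the 54, against 3.15% of all genes). The same WT libraries enter the interaction, so this share is a description of it and no separate support. DDX39B, an RNA helicase, is one such gene: it had 66.9, 69.3 and 61.8 CPM in M3 with TNF and 55.8, 57.7 and 47.2 CPM in WT with TNF, and 69, 60.5 and 66.2 CPM in M3 untreated and 78.6, 81.7 and 71.7 CPM in WT untreated. The median GC content of the transcripts was 54.9% for the 54 genes and 49% for all genes. Single libraries departed from their group mean along GC content. Spearman values were -0.34 to 0.46 in M3 untreated and -0.26 to 0.29 in WT untreated. With TNF they were -0.038 to 0.048 in M3 and -0.17 to 0.14 in WT. Whether these trends bear on the GC content of the 54 genes was not tested. The levels of the nuclear RNAs NEAT1 and MALAT1 are given beside these genes, although their interactions did not pass (0.75, adjusted p = 0.17, and 0.95, adjusted p = 0.28). NEAT1 had 269.9, 281 and 292 CPM in M3 with TNF and 159.7, 155 and 101 CPM in WT with TNF, against 297, 238 and 254 CPM in M3 untreated and 224, 222 and 206 CPM in WT untreated. MALAT1 had 127, 91.4 and 92.8 CPM in M3 with TNF and 60.3, 59.4 and 31.2 CPM in WT with TNF, against 94, 82.6 and 87.4 CPM in M3 untreated and 84.5, 79.9 and 81.5 CPM in WT untreated. WT replicate 3 with TNF was the lowest library of these 12 for both. Their part in the interaction was not tested. Without WT replicate 3 the positive interactions numbered 25, without WT replicate 1 114, and without untreated WT replicate 1 12, so this count rests on single libraries.

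The 6 negative interactions included DEPP1, TSC22D3, ITPKC, ADRB1 and PPP1R3B. DEPP1, a target of FOXO factors, had 11.4, 13.5 and 12.8 CPM in M3 with TNF and 30, 31.9 and 32.4 CPM in WT with TNF, against 9.67, 10.1 and 10.2 CPM in M3 untreated and 15.2, 14.9 and 14.8 CPM in WT untreated (interaction -0.75, adjusted p = 0.0001). TSC22D3, a gene induced by glucocorticoids, was the furthest below WT of the 5 with TNF (4.59, 4.55 and 4.76 CPM in M3, 17.7, 18.7 and 18.2 CPM in WT; log2 fold change -1.97, SE 0.069, adjusted p = 4.1e-19). PPP1R3B, which directs a phosphatase to glycogen, had an interaction of -0.49 (adjusted p = 0.001). Its call and that of DEPP1 held when any 1 library was left out. The calls of TSC22D3, ITPKC and ADRB1 were lost in 4, 8 and 4 of the 12 such fits.

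Some genes were close to on in one line and off in the other. RIMS1, a protein of the presynaptic active zone, had 7.27, 7.54 and 6.13 CPM in M3 cells with TNF and 0 counts in all 3 WT libraries, and was at least 373-fold higher (floor of 3 counts over the WT group). RGS7, a regulator of G protein signalling in neurons, likewise had 1.69, 1.89 and 1.45 CPM in M3 and 0 counts in WT, at least 89.1-fold higher. SPARCL1, a matricellular protein, had 31.8, 30.8 and 31.2 CPM in M3 and 0.061, 0.149 and 0.0522 CPM in WT (log2 fold change 8.45, SE 0.15, adjusted p = 5.5e-26). These 3 were as far apart untreated, with means of 6.71, 2.04 and 30.2 CPM in M3 and 0, 0 and 0.112 CPM in WT. ACSL5, which activates long-chain fatty acids, differed at a high level, with 660.3, 658 and 653 CPM in M3 and 39.3, 42.3 and 43.2 CPM in WT (log2 fold change 3.98, SE 0.048, adjusted p = 2.2e-29). FOXA2, a transcription factor of the endoderm, had 1.02, 1.11 and 0.904 CPM in M3 and 0.0407, 0.0747 and 0 CPM in WT, and DKK4, a secreted Wnt inhibitor, 2.05, 2.09 and 1.68 CPM in M3 and 0.0407, 0.056 and 0.087 CPM in WT. TIMP3, an inhibitor of matrix metalloproteinases, rested on 2 WT counts, and its ratio was 174 (95% exact interval 47.7 to 1439.7). Also among the 12 genes furthest up were SCN3A, CSRNP3, B3GALT1, DNAH2 and SEMA3E, at log2 fold changes of 3.80 to 5.88.

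In the other direction, PLEKHS1 had 0.0313, 0.123 and 0.0724 CPM in M3 cells with TNF and 50, 51.6 and 50.9 CPM in WT cells with TNF (log2 fold change -9.43, SE 0.13, adjusted p = 8.6e-29). APOBEC3G, a cytidine deaminase that restricts retroviruses, had 0.0627, 0.144 and 0.0724 CPM in M3 and 49.5, 51 and 53.5 CPM in WT (log2 fold change -9.13, SE 0.13, adjusted p = 7.2e-28). STC1, a secreted glycoprotein, had 0.658, 0.779 and 0.633 CPM in M3 and 174, 186 and 209 CPM in WT (-8.11, adjusted p = 1.0e-19). All 3 were nearly silent in M3 and well expressed in WT. ANKRD1, a YAP target, PI3, the protease inhibitor elafin, and PTPN22, a phosphatase known from lymphocytes, had 0 counts in all 3 M3 libraries and were at least 129-fold, 113-fold and 66.4-fold lower there. In WT cells they had 2.22, 2.28 and 2.4 CPM, 2.01, 1.92 and 2.12 CPM and 1.14, 1.14 and 1.27 CPM in the order named. SEMG1 rested on 3 counts in M3, and the ratio of WT over M3 was 739 (95% exact interval 252 to 3585). For ZNF502 and MUC13, a membrane mucin, the M3 group held 1 count each, and the ratios of WT over M3 were 743 (95% exact interval 133 to 29384) and 623 (95% exact interval 111 to 24666). LRP2, BPIFB1 and SLPI were lower (-8.28, -8.02 and -7.88). PI3, SEMG1 and SLPI lie close together on chromosome 20, between 45174876 and 45254564 (GRCh38). Every one of the 24 genes in this pair of paragraphs differed in the same direction untreated.

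The levels of 4 of these genes in N108 cells with TNF are given beside them, with no test, since a comparison with WT would share the WT libraries. RIMS1 averaged 6.98 CPM in M3, 0 CPM in N108 and 0 CPM in WT, all with TNF. ZNF502 averaged 0.00603 CPM in M3, 5.62 CPM in N108 and 4.44 CPM in WT. PLEKHS1 averaged 0.0756 CPM in M3, 0.185 CPM in N108 and 50.8 CPM in WT, and ACSL5 657 CPM in M3, 416 CPM in N108 and 41.6 CPM in WT. N108 was thus close to WT for RIMS1 and ZNF502, and far from WT for PLEKHS1 and ACSL5. These 4 are examples and do not show how many of the genes above follow either pattern.

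**Figure D4:**
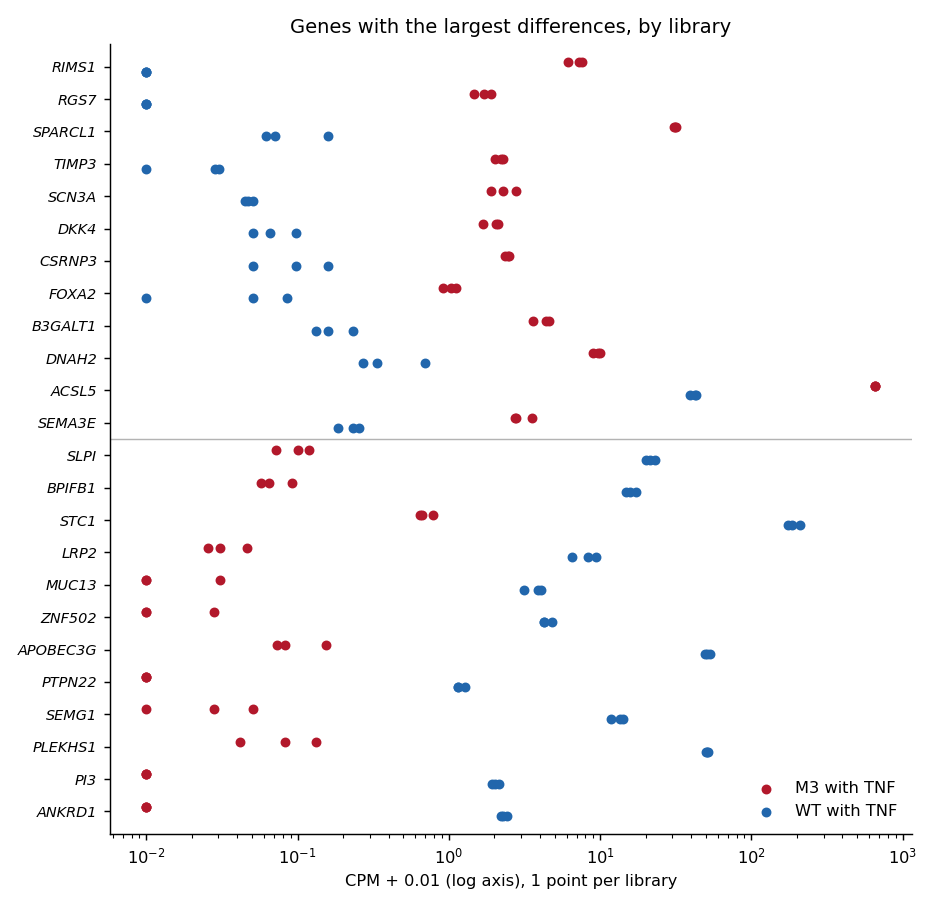
CPM plus 0.01 on a log axis in M3 cells with TNF (red, upper row of each gene) and WT cells with TNF (blue, lower row), 1 point per library, for the 12 genes furthest up and the 12 furthest down in M3 by the naming rule. The rule took only genes whose 2 groups do not overlap, so the gap between the points is a condition of the choice. Values at 0.01 are libraries with 0 counts.

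Interferon-stimulated genes were lower in M3 as a group. Of 40 members tested 2 were higher and 30 lower (75%), with a median log2 fold change of -0.88, and untreated cells gave 3 higher and 32 lower. IFIT1, which binds foreign RNA, had 4.5, 4.08 and 5.16 CPM in M3 and 17.3, 17.5 and 17.6 CPM in WT (log2 fold change -1.93, SE 0.083, adjusted p = 4.3e-17). BST2, which tethers budding virus to the cell, had 3.38, 3.63 and 3.98 CPM in M3 and 15.3, 16 and 14.7 CPM in WT (log2 fold change -2.06, SE 0.088, adjusted p = 3.6e-17). IFI35 and PARP9 were lower (-2.32 and -1.25). OAS1, which senses double-stranded RNA, was lower (-3.71). The 2 higher members were STAT2 (0.14) and DDX60L (1.05).

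Antigen presentation genes were lower in 18 of 25 cases and higher in 3 (median log2 fold change -0.41). PSMB10, an immunoproteasome subunit, had 2.27, 2.48 and 2.41 CPM in M3 and 8.03, 6.96 and 8.56 CPM in WT (log2 fold change -1.72, SE 0.12, adjusted p = 1.2e-12). TAP2 and TAPBP, which load peptides on class I molecules, were lower (-0.67 and -0.60).

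**Figure D5:**
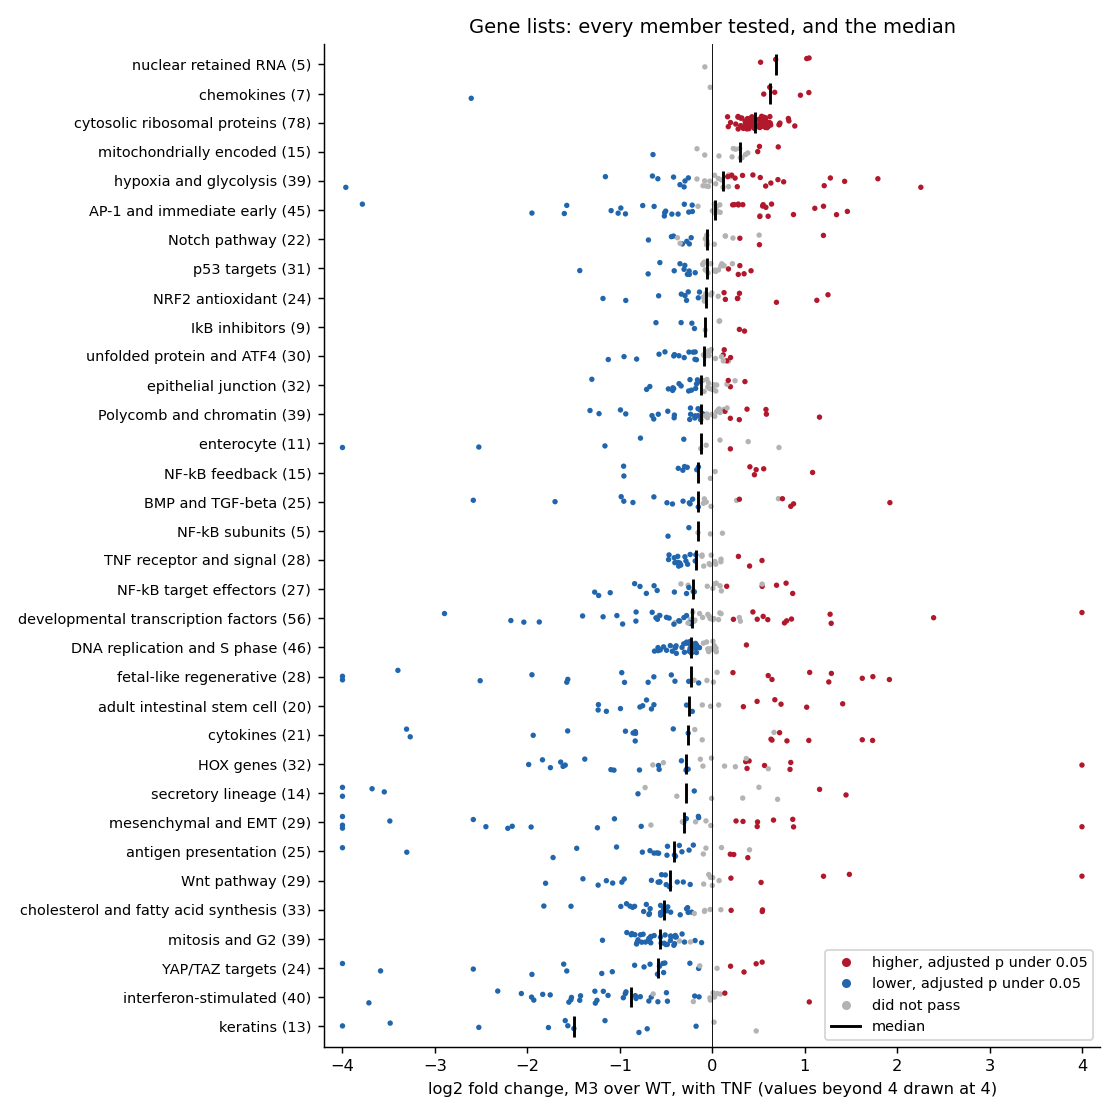
Log2 fold change of M3 over WT with TNF for every member tested of 34 gene lists, 1 point per gene, coloured by call, with the median as a black bar and the number of members tested in brackets; lists run from the highest median at the top to the lowest at the bottom, and values beyond 4 are drawn at 4. All 78 ribosomal protein genes lie right of 0, and mitosis, interferon-stimulated and keratin genes lie mostly left of it.

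Genes of intestinal identity were mixed, with more lower than higher. The adult stem cell list had 6 higher and 11 lower of 20 tested, while LGR5, ASCL2, OLFM4, SMOC2, PTPRO, HOPX and KCNE3 did not pass the low-count filter. SOX9, a transcription factor of crypts, had 156, 171 and 170.4 CPM in M3 and 273, 262 and 279 CPM in WT (log2 fold change -0.71, SE 0.049, adjusted p = 1.1e-12). The Wnt feedback genes AXIN2 and ZNRF3 were lower, AXIN2 at 6.96, 6.6 and 6.87 CPM in M3 and 16.2, 15.4 and 16.5 CPM in WT (log2 fold change -1.23, SE 0.071, adjusted p = 2.9e-14), and ZNRF3 with a log2 fold change of -1.15. MYB was higher (1.02, adjusted p = 8.1e-14). Across the Wnt list 18 of 29 were lower and 5 higher. The higher ones included TCF7L2, a transcription factor that binds β-catenin (297, 324 and 315 CPM in M3, 109, 118 and 107 CPM in WT; log2 fold change 1.48, SE 0.056, adjusted p = 2.6e-18). DKK1, a secreted Wnt inhibitor, was among the lower ones (134, 137 and 139.7 CPM in M3, 466, 453 and 516 CPM in WT; log2 fold change -1.80, SE 0.049, adjusted p = 9.0e-22).

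The list named fetal-like and regenerative had 9 higher and 15 lower of 28. SPARC, a matricellular protein, had 0.454, 0.472 and 0.434 CPM in M3 and 62.7, 60.6 and 70 CPM in WT (log2 fold change -7.15, SE 0.098, adjusted p = 1.4e-28), in contrast to its relative SPARCL1. ANXA3, an annexin, had 29, 27.6 and 28.2 CPM in M3 and 290.0, 294 and 312 CPM in WT (log2 fold change -3.40, SE 0.046, adjusted p = 9.6e-29). AREG and EREG, higher as given above, and IL1RN, the antagonist of the interleukin 1 receptor (1.92), went the other way. Few enterocyte and secretory genes were expressed, 11 of 35 and 14 of 28 listed. Of the 11 enterocyte genes 1 was higher, 5 were lower and 5 did not pass. Of the 14 secretory genes 2 were higher, both at least 2-fold, 6 were lower and 6 did not pass. The higher secretory genes numbered 1 without M3 replicate 2 or 3 or WT replicate 2 or 3. The higher enterocyte genes numbered 2 without WT replicate 1. CEACAM1, an adhesion molecule, had 1.52, 1.62 and 1.37 CPM in M3 and 24.6, 27.1 and 28.4 CPM in WT (log2 fold change -4.15, SE 0.099, adjusted p = 5.7e-23), and DCLK1, a marker of tuft cells, averaged 0.0611 ± 0.018 CPM in M3 and 5.84 ± 0.33 CPM in WT. The targets of YAP and TAZ were lower in 18 of 24 cases and higher in 4 (median -0.58), AMOTL2, a brake on YAP, among them (-1.19, adjusted p = 1.3e-16).

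Keratins, the filaments of epithelial cells, were lower in 11 of 13 cases and higher in none, with a median log2 fold change of -1.50. KRT18 had 594, 625 and 649 CPM in M3 and 1409, 1339 and 1427 CPM in WT (log2 fold change -1.16, SE 0.051, adjusted p = 7.5e-17), and its partner KRT8 1713, 1776 and 1813 CPM in M3 and 3019, 2945 and 3222 CPM in WT (log2 fold change -0.79, SE 0.048, adjusted p = 9.0e-14). KRT80 and KRT23 were lower (-3.48 and -1.77). The junction list had 16 of 32 lower, CDH1, which encodes E-cadherin, among them (136, 134 and 136 CPM in M3, 221, 213 and 216 CPM in WT; log2 fold change -0.67, SE 0.038, adjusted p = 2.2e-14). As a check of the label, all 7 epithelial markers were expressed in both lines, summing to 3969.6 to 4284 CPM in M3 and 6758 to 7312 CPM in WT. EPCAM was higher in M3 (0.17, adjusted p = 0.0061), a call lost without M3 replicate 3 (adjusted p = 0.071), and the other 6 were lower. Markers of fibroblasts, leukocytes and endothelium summed to low levels, while some neural markers were clearly expressed. SYT1 averaged 85 CPM in M3 and 132.7 CPM in WT. Of 7 fibroblast markers 3 had 0 counts in all 6 libraries, and the sum was 33.8 to 35.9 CPM in M3 and 19.8 to 23.4 CPM in WT, most of it COL1A1. Leukocyte markers summed to 0.611 to 0.82 CPM in M3 and 3.39 to 4.59 CPM in WT, most of it LYZ, and 2 of 7 had 0 counts in all 6 libraries. Endothelial markers summed to 0.995 to 1.66 CPM in M3 and 1.44 to 1.54 CPM in WT, and neural markers to 121 to 129 CPM in M3 and 172 to 175 CPM in WT, most of it SYT1.

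Mesenchymal genes were lower in 16 of 29 cases and higher in 8, with the widest range of any list, from -7.15 for SPARC to 8.45 for SPARCL1. THBS1, a matrix glycoprotein, had 13.4, 13 and 14.5 CPM in M3 and 54, 50.2 and 54.9 CPM in WT (log2 fold change -1.96, SE 0.063, adjusted p = 4.8e-20), and TGFB1, the growth factor, 89, 96.5 and 96.4 CPM in M3 and 49.6, 50.6 and 53 CPM in WT (log2 fold change 0.88, SE 0.06, adjusted p = 9.4e-13). HOX genes, which set position along the body axis, were higher in 7 and lower in 16 of 32 cases. That is 21.9% higher and 50% lower, against 26.9% and 27.8% of all genes. The genes with the smallest p were all of the HOXB cluster on chromosome 17: HOXB8 had 35.9, 37.4 and 40.6 CPM in M3 and 135, 131 and 140.3 CPM in WT (log2 fold change -1.84, SE 0.055, adjusted p = 8.6e-21), and HOXB3, HOXB4 and HOXB6 were lower (-1.59, -1.99 and -1.61). Other developmental transcription factors were higher in 12 and lower in 23 of 56 cases. GATA2 and GATA3 went in opposite directions. GATA2 had 30.9, 30 and 32.6 CPM in M3 and 136, 138 and 149.9 CPM in WT (log2 fold change -2.18, SE 0.056, adjusted p = 2.4e-22), and GATA3 had 31.6, 31.6 and 32.3 CPM in M3 and 5.41, 6.09 and 6.61 CPM in WT (log2 fold change 2.39, SE 0.071, adjusted p = 7.8e-21). Polycomb and chromatin genes, some of which are known to silence HOX clusters, were lower in 21 of 39 cases and higher in 7, with CBX7, a reader of the Polycomb mark, lower (-1.22, adjusted p = 3.4e-17) and PHC2, another subunit, higher (1.16, adjusted p = 2.5e-17).

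Ribosomal protein genes stood apart in their uniformity: all 78 tested were higher in M3 with TNF, by 0.17 to 0.89 on the log2 scale (median 0.46). Their summed level was 83630.5 to 86864 CPM in M3 and 59912 to 63261 CPM in WT, so that they took a larger share of the counts. RPL22 had 283, 289 and 307 CPM in M3 and 157, 157 and 159 CPM in WT (log2 fold change 0.89, SE 0.048, adjusted p = 5.5e-15), and RPS18 2429, 2408 and 2408 CPM in M3 and 1320.1, 1331 and 1425 CPM in WT (log2 fold change 0.83, SE 0.053, adjusted p = 3.0e-13). Processed copies of these genes can share their reads. The elongation factor genes EEF1A1 and EEF2, among the most abundant transcripts, were higher as well (0.42 and 0.16).

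Mitosis genes went the other way with similar uniformity, 37 of 39 being lower and none higher (median -0.56). AURKA, a spindle kinase, had 53.7, 48.6 and 52.1 CPM in M3 and 95.4, 90.4 and 97.9 CPM in WT (log2 fold change -0.88, SE 0.05, adjusted p = 2.4e-14), and ANLN, which acts in cytokinesis, 118, 119 and 113 CPM in M3 and 211, 209.7 and 218 CPM in WT (-0.87, adjusted p = 4.3e-14). Replication genes were lower in 33 of 46 cases and higher in 1, by smaller steps (median -0.22); RRM2, a subunit of the enzyme that makes deoxynucleotides, was lower (-0.59). Cholesterol and fatty acid synthesis genes were lower in 25 of 33 cases and higher in 3 (median -0.52). INSIG1, a brake on the pathway, had 41.4, 44 and 42.9 CPM in M3 and 119.5, 118 and 132 CPM in WT (log2 fold change -1.53, SE 0.049, adjusted p = 4.0e-20). All these groups had the same direction untreated, with medians of 0.55 for ribosomal proteins, -0.53 for mitosis, -0.21 for replication and -0.42 for cholesterol synthesis.

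Hypoxia and glycolysis genes were higher in 16 and lower in 9 of 39 cases with TNF (median 0.12), and in 26 and 8 untreated (median 0.32). None of the 39 had a called interaction, so a difference between the 2 counts was not shown per gene. CA12, a carbonic anhydrase, had 27, 28.4 and 24.8 CPM in M3 and 5.24, 5.75 and 5.74 CPM in WT (log2 fold change 2.26, SE 0.066, adjusted p = 6.3e-21). SLC2A3, the glucose transporter GLUT3, had 0.877, 0.718 and 0.832 CPM in M3 and 12.5, 12.3 and 13.4 CPM in WT (log2 fold change -3.96, SE 0.12, adjusted p = 1.1e-20), and PKM, which ends glycolysis, was lower (-0.59).

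The remaining lists are given against the background of 26.9% higher and 27.8% lower. Targets of p53 were higher in 5 and lower in 11 of 31, PLK2 being furthest down (-1.43, adjusted p = 3.4e-20). Genes of the unfolded protein response and ATF4 were higher in 4 and lower in 14 of 30, with CHAC1 lower (-1.12, adjusted p = 4.4e-09). Notch genes were higher in 3 and lower in 7 of 22, NRF2 targets in 8 and 9 of 24, and BMP and TGF-β genes in 5 and 13 of 25. Without M3 replicate 2 the lower NRF2 targets numbered 5 and the lower BMP and TGF-β genes 8, and without M3 replicate 3 the last were 8 too. The higher NRF2 targets numbered 5 without WT replicate 1 and 4 without WT replicate 2, the higher Notch genes 1 without WT replicate 1, and the higher genes of the unfolded protein response 2 without WT replicate 2. INHBA, a subunit of activin, had 3.17, 4.39 and 3.38 CPM in M3 and 0.935, 1.01 and 0.922 CPM in WT (log2 fold change 1.92, SE 0.16, adjusted p = 9.3e-11), and SMAD6, which inhibits BMP signalling, 8.54, 8.53 and 9.57 CPM in M3 and 29.1, 27.9 and 29.5 CPM in WT (log2 fold change -1.70, SE 0.062, adjusted p = 8.8e-19).

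Of transcripts that reflect RNA handling, 4 of 5 nuclear RNAs were higher in M3 with TNF and none was lower (median 0.69), and 1 of 5 was higher untreated (median 0.10). None of the 5 had a called interaction, so a difference between these counts was not shown. With the 6 libraries alone 2 were higher, and without WT replicate 3 TUG1 was called lower. The log2 fold change of NEAT1 was 1.02, or 0.84 without WT replicate 3, and that of MALAT1 1.05, or 0.79. KCNQ1OT1 (0.69, adjusted p = 0.046) lost its call without M3 replicate 1 or 3 or WT replicate 1 or 3, with adjusted p up to 0.21. Of 15 mitochondrially encoded genes 3 were higher and 1 lower, and without WT replicate 2 the higher ones numbered 7. The call of MT-ND5 (0.49, adjusted p = 0.023) was lost without M3 replicate 2, WT replicate 1 or WT replicate 3, with adjusted p up to 0.094. The genes summed to 49095 to 57912 CPM in M3 and 38874 to 49658 CPM in WT. MT-CO1 had 8068, 9295 and 8526 CPM in M3 and 5047, 6284 and 4450.0 CPM in WT (0.71, adjusted p = 0.001). The part of these in the other differences was not tested.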

How the data were processed

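Total RNA of HCT116 knock-in cells was sequenced in pairs of 50 bp reads, as the labels' protocols state. Groups came from the sample titles, and every column was matched to a sample by its library name. The authors deposited raw counts of reads per gene; the submitters' processing notes name the hg38 build, STAR 2.7.8, Trim Galore 0.6.6, DESeq2 1.38.3 and featureCounts (Subread 2.0.1). Neither the annotation release nor the strand setting is stated there, so reads of genes that overlap on opposite strands may not be told apart. The authors also deposited a normalized table on a log2 scale, which was checked and not used.

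The test was that of edgeR 4.0.16 (R 4.3.3) (filterByExpr with a minimum count of 10, TMM factors, robust quasi-likelihood fit, 1 mean per group over all 18 libraries, 12 residual degrees of freedom). The 19038 genes kept hold 99.97% of the counts, and 99.8% of them had a symbol. p-values were adjusted by Benjamini-Hochberg over these genes. SE was obtained by dividing the size of the log2 fold change by √F, and CPM uses TMM-scaled totals. Where a group had 0 counts, the fold is a bound computed with 3 counts for that group; with 1 to 3 counts an exact 95% interval is given. Both cover counting error only. Positions and GC content are from GENCODE 29.

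The comparison, its 39 gene lists and the naming rule were chosen with earlier results of these data known. The rule named the 12 highest and 12 lowest genes (a mean of 1 CPM or more in the higher group, no overlap between groups, no clone or noncoding names), all members of the TNF and NF-κB lists, the 4 members of each other list with the smallest p, the 6 interactions of smallest p per direction, up to 6 genes of opposite sign, the 6 most abundant called genes per direction, and cell type markers. A few further list members are named as examples after their values were seen, as are SERPINA3, CEBPD, IL17C and MAP3K8. Some genes that the rule takes are not printed one by one, or not reported here. Lists are described by counts and medians and were not tested. In counts simulated from these libraries, 90 of 100 genes changed by 0.5 and 100 of 100 changed by 1 on the log2 scale were recovered for M3 against WT with TNF, with 5.47% of calls false. For the interaction 78 and 98 of 100 were recovered, with 5.38% of calls false. The simulation gave all 6 groups the same mean and changed only those genes, all above 1 CPM, in M3 with TNF. In the data 54.7% of the genes were called, many of them at lower levels, so these shares need not hold for the calls given here.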

Additional observations from a re-analysis of the deposited data

Results flagged for a closer look

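The difference between M3 and WT with TNF departed from the difference untreated, by the test of the interaction itself, in 54 genes upwards and 6 downwards. Among the genes named, the upward ones (log2, M3 minus WT with TNF less the same untreated) were CXCL8 at 1.63, TNFAIP3 at 1.44, NFKBIZ at 1.33, CXCL1 at 1.13, PDGFB at 0.99, RNF31 at 0.87, ICAM1 at 0.86, JUN at 0.74, CSF1 at 0.70, ZC3H12A at 0.66, NUAK2 at 0.63, NFKBIA at 0.58, ATF3 at 0.57, DDX39B at 0.55, DUSP8 at 0.54, MAFF at 0.52, SDC4 at 0.38 and ZFP36 at 0.35. The downward ones were ADRB1 at -0.91, DEPP1 at -0.75, TSC22D3 at -0.51, PPP1R3B at -0.49 and ITPKC at -0.43.

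Leaving out 1 of the 12 M3 and WT libraries ended some of these calls. RNF31, ZFP36 and NUAK2 were lost in 10 of the 12 fits, with adjusted p (edgeR) up to 0.19, 0.16 and 0.13. ITPKC was lost in 8 and CXCL1 in 6 of them. CSF1, SDC4, ADRB1 and TSC22D3 were lost in 4 each, and DUSP8 and DDX39B in 2 each. The remaining 12 calls held in all 12 fits. RNF31, a subunit of the linear ubiquitin ligase, averaged 2.04 CPM in M3 with TNF and 1.93 CPM in WT with TNF, and 1.61 CPM in M3 untreated and 2.77 CPM in WT untreated.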

How the results depend on the processing

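No call of a named gene turned into a call in the opposite direction in any setting tried. Values that did not pass can change sign between settings. The counts of genes higher and lower in M3 with TNF stayed within 1.5 times of 5120 and 5297 with DESeq2 1.42.0, DESeq2 size factors, no filter, a stricter filter, GC trends removed and the 6 libraries alone, and under leave-one-out fits (4598 to 4808 higher, 4771 to 4980 lower, 1893 to 2083 at least 2-fold). Tested against a log2 change of 0.5 they were 1233 and 1301, since that test asks for more. Under the stricter filter 1001 genes were at least 2-fold apart, against 2002, and 3 secretory genes were lower, against 6. Many of the 2-fold calls were thus of genes that the stricter filter leaves out.

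The interaction counts were not stable, and the cause was not tested. Against 54 higher and 6 lower, DESeq2 gave 129 and 18, no filter 236 and 29, GC trends removed 153 and 60, and GC trends removed with the replicate block 182 and 65. Leave-one-out fits gave 12 to 114 higher and 2 to 14 lower. In them the lower counts of BMP and TGF-β genes ranged from 8 to 11, and of NRF2 targets from 5 to 9. Without a filter, 367 genes were higher with TNF in N108 cells, of which 91 were higher and 140 lower in M3.

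The replicate numbers share only a number: same-numbered deviations of M3 and WT with TNF correlated at 0.036, -0.028 and -0.0015. A replicate block gave 5111 genes higher and 5248 lower with TNF, and 43 and 6 interactions. Across the genes taken by the naming rule and all settings, 4252 values of M3 against WT with TNF kept their side of the threshold, 54 calls were lost and 23 gained. Of the values of called interactions 368 kept theirs and 69 calls were lost. MALAT1 lost its call with the 6 libraries alone (adjusted p = 0.051), and CXCL1 its interaction call with GC trends removed (0.14). Depth limits genes at a few counts, such as TIMP3, ZNF502 and MUC13, whose intervals span more than 10-fold.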

Other observations

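Among the most abundant transcripts, both cytoplasmic actin genes were lower in M3 with TNF. ACTB, which encodes β-actin and often serves as a reference transcript, had 2033, 2118 and 2047 CPM in M3 and 3033, 2965 and 3184 CPM in WT (log2 fold change -0.57, SE 0.051, adjusted p = 2.5e-10), and ACTG1 had 4779, 4926 and 4792 CPM in M3 and 5661, 5458 and 5818 CPM in WT (-0.22, adjusted p = 0.0012). The chaperone genes HSPA8 and HSP90AA1 were lower by less (-0.15, adjusted p = 0.0039, and -0.11, adjusted p = 0.046). The call of HSP90AA1 was lost in every fit that left out 1 of the 6 libraries except that without M3 replicate 3, with adjusted p up to 0.17. The adjusted p-values are from edgeR, and the values are relative to libraries in which ribosomal protein genes took a larger share in M3.

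By chromosome, the median log2 fold change of M3 over WT with TNF lay between -0.086 (chromosome 22, 345 genes) and 0.022 (chromosome 6, 680 genes). Only genes above 1 CPM, by the mean of their log2 values over all 18 libraries, were used for these medians.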
